A study of Mus musculus with 16 samples.

Results

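The genes of MHC class I and peptide transport were B2m, H2-K1, H2-D1, H2-Q4, H2-Q7, H2-T23, Tap1, Tap2, Tapbp and Nlrc5. They were picked by symbol from the 24421 genes of the deposited count files, which held all 10, and 10 of 10 were among the 9642 genes with enough counts to test.

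MHC class I molecules carry peptides from inside the cell to its surface, where CD8+ T cells read them. A heavy chain, encoded in the mouse by the H2 genes, pairs with the light chain β2-microglobulin, the product of B2m, and is loaded in the endoplasmic reticulum with peptides that the transporter of Tap1 and Tap2 brings in from the cytosol and that tapasin, the product of Tapbp, helps to fit. Nlrc5 encodes a transactivator that acts on class I promoters, and interferons raise the transcription of the whole pathway in macrophages as in most other cells.

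The libraries came from subcutaneous MC38-Ova colon tumours of female C57BL/6 mice, 8 to 14 weeks old, that express the photoconvertible protein Kaede. Violet light on the tumour turned its Kaede-green cells Kaede-red, so that at 24h or 72h later Kaede-red cells had been in the tumour since labelling and Kaede-green cells had entered after it. Live CD45+ Kaede+ CD11b+ cells free of TER119 and NK1.1 were sorted, and total RNA was sequenced from 4 libraries of each colour at each time, 16 in all, from mice whose treatment is labelled Control (NA). The gate rests on CD11b, which monocytes, macrophages, neutrophils and some dendritic cells share, and the labels do not say which Kaede-green and Kaede-red libraries came from the same mouse.

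Total counts per library ranged from 3216858 to 15423085, but the ribosomal RNA gene Rn45s took most of them. Its share was 91.0, 86.5, 91.6 and 93.4% in the Kaede-green libraries at 24h and 66.2, 68.2, 83.1 and 84.9% in the Kaede-red ones. At 72h it was 88.2, 91.0, 87.9 and 79.0% in Kaede-green and 70.3, 66.2, 73.8 and 55.8% in Kaede-red libraries. The share was thus higher in every Kaede-green than in any Kaede-red library of the same time, and counts outside Rn45s ranged from 468092 to 5472477. The 10 members together held 0.409 to 0.571% of the counts outside Rn45s in Kaede-green and 0.966 to 1.42% in Kaede-red libraries at 24h, and 0.542 to 0.668% against 0.998 to 1.47% at 72h. Levels are CPM (library-scaled counts) with TMM factors, which set each library against the bulk of its genes. Scaling by the total count outside Rn45s alone would raise the median gene by 0.81 (log2) in Kaede-red against Kaede-green cells averaged over the times, while with TMM factors the median gene lay at 0.06, so the fold changes depend on the scaling chosen. Within groups the Rn45s share moved with some members: after the mean of each group is subtracted, Pearson's r over 16 libraries between that share and log2 CPM was -0.76 for B2m, -0.53 for H2-T23, -0.46 for H2-K1, -0.44 for Tapbp, -0.41 for Tap1 and Tap2, -0.17 for H2-D1, 0.12 for Nlrc5, 0.23 for H2-Q4 and 0.31 for H2-Q7. With the log2 count outside Rn45s it ranged from -0.31 (Nlrc5) to 0.26 (Tap2). These values are a description, since the members of a library share its depth and scaling. The part of the share and of depth in the results was not tested beyond the fit with that share as a covariate. Because the share differed between the colours without overlap at each time, that fit cannot tell share and colour apart. A call between the colours that ended in it is therefore not shown to come from the share.

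Markers of macrophages and monocytes were abundant: 11 of 11 were tested, and their summed level was 2294, 2680.2, 2106 and 1198 CPM in Kaede-green and 1415, 1334, 1064 and 889.9 CPM in Kaede-red libraries at 24h. At 72h it was 1639, 1554, 1417 and 1889.6 CPM in Kaede-green and 1534, 1839.5, 1842 and 1470.0 CPM in Kaede-red libraries, with Lyz2 the most abundant in each group. In edgeR's test of Kaede-red against Kaede-green cells averaged over the times, 5 of the 11 were called higher and 1 lower. The 5 included Adgre1 (log2 fold change 1.53, adjusted p = 8.19e-09, in 8 of 8 libraries) and Csf1r (0.95, adjusted p = 0.000135, in 7 of 8). The others were Cd68 (1.14, adjusted p = 2e-06), Aif1 (0.53, adjusted p = 0.0181) and Itgam (0.44, adjusted p = 0.0191). Lyz2 was lower, by -1.25 (adjusted p = 1.95e-05, in 8 of 8). At 24h Ly6c2 (-0.69, adjusted p = 0.102) and Cd14 (-0.23, adjusted p = 0.556) lay under the Kaede-green mean in 4 of 4 Kaede-red libraries and Ccr2 (-0.18, adjusted p = 0.641) in 3 of 4. At 72h Ly6c2 (0.45, adjusted p = 0.243) lay above it in 4 of 4, and Cd14 (0.14, adjusted p = 0.688) and Ccr2 (0.17, adjusted p = 0.613) in 3 of 4, and none of the 3 passed at either time. Markers of other cells were low. Endothelial markers (3 of 3 tested, Kdr the most abundant) summed to 10.03, 15.9, 14.8 and 13.5 CPM in Kaede-green and 22.4, 22.5, 17.7 and 21.3 CPM in Kaede-red libraries at 24h, and to 14.6, 9.75, 19.0 and 13.0 against 36.6, 31.6, 21.9 and 33.4 CPM at 72h. Averaged over the times Kdr (1.06, adjusted p = 1.79e-05) and Pecam1 (1.02, adjusted p = 0.00313) were higher in 8 of 8 Kaede-red libraries, and Cdh5 (-1.42, adjusted p = 0.0375) was lower in 8 of 8. Fibroblast markers (3 of 5 tested and all 3 called lower, Col3a1 the most abundant) summed to 46.8, 40.9, 40.3 and 52.6 CPM in Kaede-green and 18.8, 19.1, 35.3 and 35.8 CPM in Kaede-red libraries at 24h, and 46.3, 42.9, 46.9 and 48.5 against 15.1, 18.2, 18.0 and 11.1 CPM at 72h. Neutrophil markers (2 of 7 tested, Csf3r the most abundant and called higher, Retnlg at 0 in every group but Kaede-red 72h) summed to 10.6, 8.58, 12.0 and 12.2 CPM in Kaede-green and 14.3, 11.9, 9.05 and 11.2 CPM in Kaede-red libraries at 24h, and to 10.6, 10.4, 12.2 and 12.2 against 22.2, 20.0, 22.3 and 17.8 CPM at 72h. Group means of the remaining lists stayed at 5.37 CPM or lower: T and NK cells (1 of 7 tested, Gzmb the most abundant) at 3.34 to 5.37, dendritic cells (2 of 6 tested, Cd209a the most abundant in Kaede-green and Ccr7, which was called higher, in Kaede-red libraries, Xcr1 at 0 in Kaede-green libraries and Ccr7 in those of 24h) at 2.20 to 3.95, erythroid cells (1 of 3 tested, Hba-a1 the most abundant) at 0.670 to 3.70, tumour epithelial cells (0 of 5 tested, Cdh1 the most abundant, Krt18 at 0 in every group but Kaede-red 24h) at 0.334 to 1.86 and B cells (0 of 2 tested, Cd79a the more abundant in Kaede-green 24h libraries, where Ms4a1 was at 0, and Ms4a1 in the other groups) at 0.139 to 0.612. Whether these cells had a part in the differences of the members was not tested, and in bulk RNA fewer cells of a type cannot be told apart from less RNA per cell.

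Per kilobase of exons, B2m had the highest level of the members in every group, with a mean of 425 ± 73.4 (SD, n = 4) CPM per kb at 24h for Kaede-green and 539.5 ± 104 for Kaede-red cells, with 371 ± 69.0 and 621 ± 40.3 at 72h. The classical heavy chains H2-D1 and H2-K1, which present peptides to CD8+ T cells, came next. H2-D1 stood at 145 ± 16.5, 175 ± 25.6, 177 ± 38.2 and 208 ± 32.4 CPM per kb in Kaede-green 24h, Kaede-red 24h, Kaede-green 72h and Kaede-red 72h cells. H2-K1 stood at 91.1 ± 10.9, 174 ± 24.5, 109 ± 12.5 and 203 ± 28.2 in the same order, so that it lay below H2-D1 in Kaede-green cells and within 1 SD of it in Kaede-red cells at either time. The non-classical heavy chains H2-Q4, H2-Q7 and H2-T23 lay between 28.7 and 54.5 CPM per kb, and in Kaede-green cells at 24h their means differed by less than the larger of their SDs. Tapbp (18.6 to 32.4) and Tap1 (17.4 to 26.2) followed, and did not differ beyond their spread in cells of either colour at 24h. Tap2 (3.37 to 5.44) and Nlrc5 (1.63 to 2.56) were lowest, Nlrc5 below Tap2 by group mean in all 4 groups. Lengths are those of GENCODE M21 exons, which need not be those the authors counted on.

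**Figure D1:**
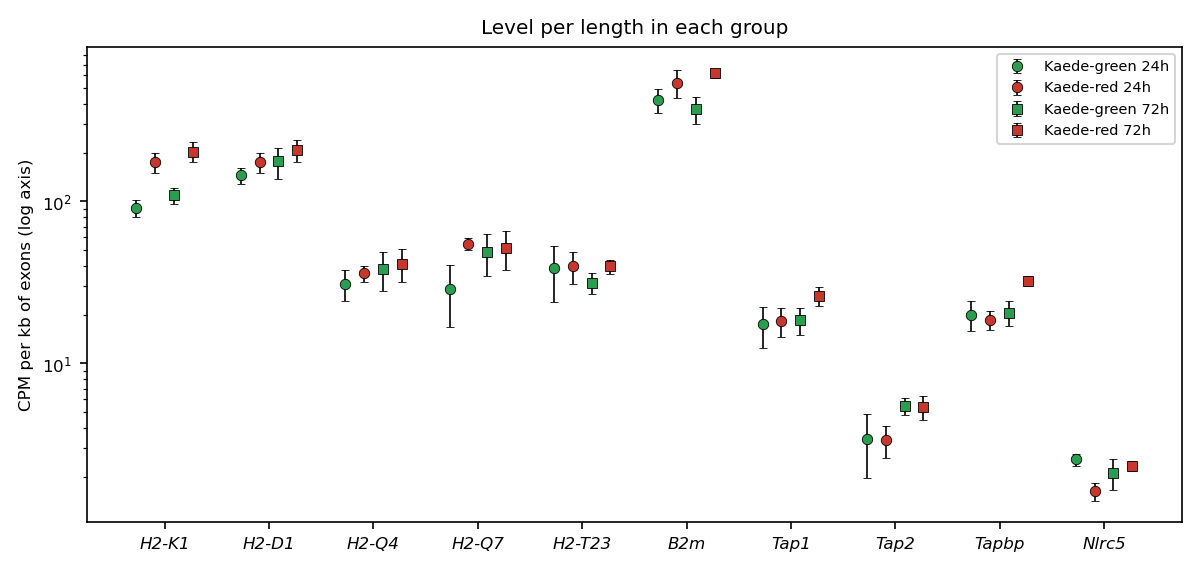
Mean level of each member in CPM per kb of exons (log axis) with its SD over 4 libraries, in Kaede-green (green) and Kaede-red (red) cells at 24h (circles) and 72h (squares). B2m lies highest in every group, at 371 to 621 CPM per kb, and H2-K1 reaches the level of H2-D1 in Kaede-red cells alone.

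The members lie in 3 places of the GRCm38 genome. Tapbp, H2-K1, Tap1, Tap2, H2-D1, H2-Q4, H2-Q7 and H2-T23 follow each other on chromosome 17, from chr17:33915899-33929292 for Tapbp to chr17:36029773-36032855 for H2-T23, with H2-K1 at chr17:33996017-34000347 and H2-D1 at chr17:35262730-35267499. B2m is on chromosome 2 (chr2:122147686-122153083) and Nlrc5 on chromosome 8 (chr8:94434356-94527272). The start of Tap1 overlaps that of the proteasome gene Psmb9 on the opposite strand. B2m overlaps Patl2 on the opposite strand, and Tapbp overlaps Zbtb22 on the same strand. How reads in these overlaps were assigned is not given in the sources used here. Heavy chain genes resemble each other, which bears on how reads can be assigned. Of the 100-base windows of the transcript, 16.4% in H2-Q7, 7.28% in H2-T23, 4.64% in H2-D1 and 2.66% in H2-Q4 also occurred in another gene's transcripts, against 0 in H2-K1, B2m, Tap1, Tap2 and Nlrc5. The search used GENCODE M21, which has no gene named H2-Q9, so windows that H2-Q7 shares with H2-Q9 are not in its share. H2-Q7 had the same count as H2-Q9 in all 16 libraries, so a value of H2-Q7 cannot be assigned to H2-Q7 alone. It was the 1 member of which this holds, and 61 of the 9642 tested genes shared their counts with another tested gene.

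Promoters of 8 members were found in the RefSeq table for GRCm38.p6, those of Tap2 and Nlrc5 were not. In the 250 bases before each start, both strands were searched for 4 motifs named after the elements of class I promoters: an interferon-stimulated response element (ISRE, GAANNGAAA), a kappa B element (GGNNTTNCC), the X2 box (TGACG) and the Y box (CCAAT). Of 27025 mouse promoters of that length, 6.34% held the ISRE letters, 13.3% those of kappa B, 17.9% those of X2 and 34.5% those of Y, and 0.895% held the ISRE with kappa B. H2-K1, H2-D1, H2-Q4 and H2-Q7 held all 4 motifs. B2m held kappa B, X2 and Y, Tap1 held X2 and Y, and Tapbp and H2-T23 held Y. The stretches with these motifs are shown for the heavy chains that held all 4 and for their partner B2m, so that those of H2-K1 and H2-D1 can be read side by side. They are 130 bases long and written 5′ to 3′ on the strand of the gene, with complete matches to any of the 4 motifs in capitals, overlapping or adjoining ones run together. A match is a description of letters and not of binding. The stretches are at chr17:34000354-34000483 (minus strand) for H2-K1, chr17:35262898-35263027 (plus) for H2-D1, chr17:35379434-35379563 (plus) for H2-Q4, chr17:35438997-35439126 (plus) for H2-Q7 and chr2:122147551-122147680 (plus) for B2m.
H2-K1: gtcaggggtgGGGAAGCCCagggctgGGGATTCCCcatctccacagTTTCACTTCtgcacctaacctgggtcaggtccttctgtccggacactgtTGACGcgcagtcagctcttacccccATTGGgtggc
H2-D1: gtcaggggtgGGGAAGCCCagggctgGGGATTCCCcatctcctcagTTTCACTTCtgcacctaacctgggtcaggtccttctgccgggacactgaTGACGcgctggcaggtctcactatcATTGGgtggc
H2-Q4: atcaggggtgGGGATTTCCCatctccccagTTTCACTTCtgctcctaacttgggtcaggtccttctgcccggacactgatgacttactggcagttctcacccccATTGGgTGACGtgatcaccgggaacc
H2-Q7: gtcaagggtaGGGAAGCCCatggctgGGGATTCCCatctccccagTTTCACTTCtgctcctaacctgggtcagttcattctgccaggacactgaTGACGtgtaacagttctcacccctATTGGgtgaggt
B2m: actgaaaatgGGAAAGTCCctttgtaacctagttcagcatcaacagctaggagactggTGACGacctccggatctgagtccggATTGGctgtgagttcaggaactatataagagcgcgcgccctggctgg
The stretches of H2-K1 and H2-D1 have the same base at 119 of 130 positions (91.5%), and their ISRE, kappa B, X2 and Y matches have the same letters.

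Kaede-red were compared with Kaede-green cells to ask how expression differs between cells that had stayed in the tumour and cells that had newly entered. H2-K1, B2m and H2-Q7 were higher in Kaede-red cells averaged over the times, and no member was lower. They were 3 of 10 members with an adjusted p under 0.05 in edgeR's quasi-likelihood test, as were 20.2% of all tested genes, while with scaling by the total count outside Rn45s all 10 passed, as did 68.5% of the 8261 genes tested there. H2-K1 was the 1 member whose Kaede-red libraries lay apart from the Kaede-green ones of both times together, as did 2.94% of all tested genes. At 24h, H2-K1 and H2-Q7 were higher and Nlrc5 was lower in Kaede-red cells, 3 of 10 members against 7.51% of all tested genes. Those 3 also had no overlap between the colours, as had 12.5% of tested genes. At 72h, H2-K1, B2m and Tapbp were higher, 3 of 10 members, beside 16.8% of all tested genes called in either direction (778 higher and 845 lower). The libraries of these 3 and of Tap1 did not overlap, 4 of 10 members against 22.5% of tested genes. The median log2 fold change of the 10 members was 0.26 averaged over the times, 0.14 at 24h and 0.29 at 72h, beside 0.06, 0.05 and 0.03 for all tested genes. With the Rn45s share as a covariate the number of members called was 0 averaged over the times, 1 at 24h and 0 at 72h, and that of all genes 156, 206 and 102 in place of 1950, 724 and 1623.

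**Figure D2:**
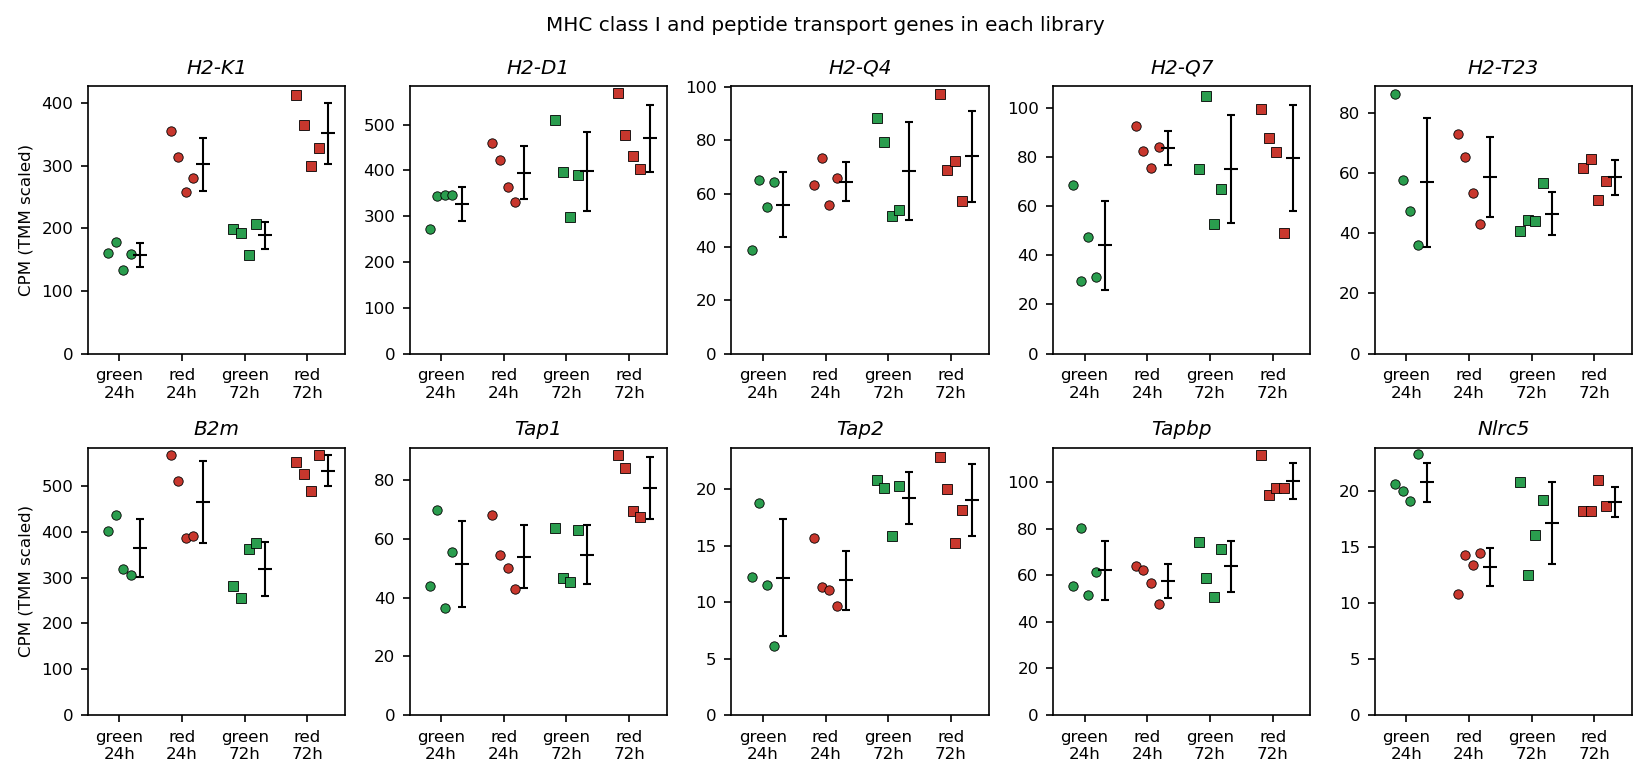
Level of each member in CPM in all 16 libraries, by colour and time, with the mean and SD of each group (n = 4) in black. The H2-K1 levels of Kaede-red libraries (259 to 413 CPM) lie above those of all Kaede-green libraries (133 to 207 CPM), whereas H2-D1 overlaps between the colours at both times.

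H2-K1, the heavy chain of H-2K, had 159.9, 179, 133 and 159 CPM in the Kaede-green and 355, 314, 259 and 279.6 CPM in the Kaede-red libraries at 24h. At 72h it had 199, 192, 158 and 207 CPM in the Kaede-green and 413, 364, 300.1 and 328 CPM in the Kaede-red libraries. The lowest Kaede-red library thus exceeded the highest Kaede-green one, whichever time each came from. The log2 fold change was 0.92 (SE 0.14, 95% interval 0.64 to 1.20, adjusted p = 6.94e-06) averaged over the times, or 1.89-fold, higher in 8 of 8 Kaede-red libraries than the Kaede-green mean. It was 0.94 (SE 0.19, adjusted p = 0.00186) at 24h and 0.90 (SE 0.19, adjusted p = 0.0012) at 72h, and the difference between the times was -0.04 (95% interval -0.60 to 0.51, adjusted p = 0.959). The call ended with the Rn45s share as a covariate, where the value was 0.70 (adjusted p = 0.102) averaged over the times, 0.75 (adjusted p = 0.0963) at 24h and 0.65 (adjusted p = 0.398) at 72h. With scaling by the total count outside Rn45s it was 1.69 averaged over the times, or 0.87 relative to the median gene of that scaling.

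H2-D1, the other classical heavy chain, had 271, 345, 346 and 347 CPM in the Kaede-green and 459.8, 423, 365 and 331 CPM in the Kaede-red libraries at 24h. At 72h it had 509.7, 396, 299 and 389.7 CPM in the Kaede-green and 569.6, 477, 431 and 403 CPM in the Kaede-red libraries. The colours overlapped at both times, and the highest Kaede-green library at 72h exceeded 3 of the 4 Kaede-red ones. The log2 fold change was 0.25 (95% interval -0.05 to 0.55, adjusted p = 0.238) averaged over the times, 0.27 at 24h and 0.24 at 72h, and did not pass the test.

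The balance of the classical heavy chains can be read within each library as the ratio of H2-K1 to H2-D1 counts, which scaling does not touch. It was 0.589, 0.518, 0.384 and 0.459 in Kaede-green and 0.773, 0.742, 0.709 and 0.844 in Kaede-red libraries at 24h. At 72h it was 0.390, 0.485, 0.528 and 0.532 in Kaede-green and 0.725, 0.763, 0.696 and 0.816 in Kaede-red libraries. Every Kaede-red library lay above every Kaede-green library, with a gap from 0.589 to 0.696. The mean ratio was 0.487 ± 0.0872 (SD, n = 4) and 0.767 ± 0.0577 at 24h and 0.484 ± 0.0663 and 0.750 ± 0.0515 at 72h. The ratio was chosen after its values were seen and carries no test. The printed promoter stretches of H2-K1 and H2-D1 match at 119 of 130 bases, and whether sequence has a part in the ratio was not tested.

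**Figure D3:**
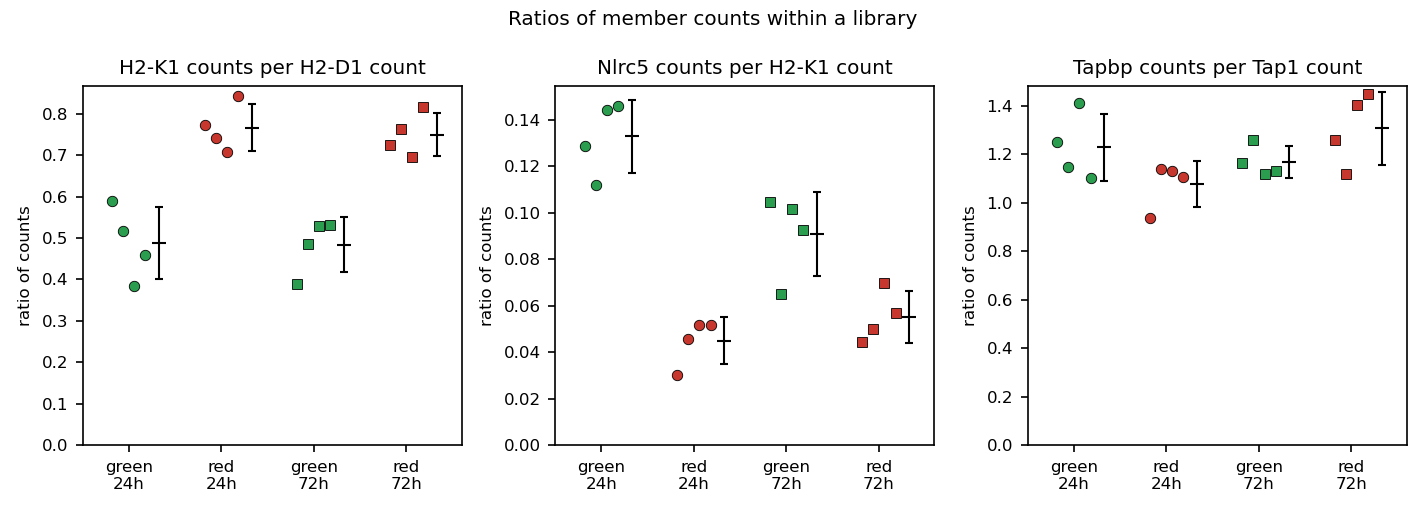
Ratio of raw counts of 2 members in each library by colour and time, with the mean and SD of each group (n = 4) in black. H2-K1 per H2-D1 is 0.384 to 0.589 in Kaede-green and 0.696 to 0.844 in Kaede-red libraries, and Nlrc5 per H2-K1 at 24h is 0.112 to 0.146 against 0.0303 to 0.0518.

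H2-Q7 encodes a non-classical heavy chain of the Qa-2 group, and its values are equally those of H2-Q9. They were 68.5, 29.4, 47.5 and 31.0 CPM in the Kaede-green and 92.8, 82.6, 75.7 and 84.1 CPM in the Kaede-red libraries at 24h. At 72h they were 75.4, 105, 53.0 and 66.9 CPM in the Kaede-green and 99.6, 87.7, 82.1 and 49.1 CPM in the Kaede-red libraries. The colours stood apart at 24h and overlapped at 72h, where the highest and the lowest library of all 8 were the Kaede-green library 2 and the Kaede-red library 4. The log2 fold change was 0.94 (SE 0.25, adjusted p = 0.0153) at 24h, with 4 of 4 Kaede-red libraries above the Kaede-green mean, and 0.09 (adjusted p = 0.857) at 72h. The difference between the times was -0.85 (95% interval -1.55 to -0.15, adjusted p = 0.227, under 0.05 before adjustment). Over both times it was 0.51 (SE 0.17, adjusted p = 0.0327), with 7 of 8 Kaede-red libraries above the Kaede-green mean of their time. The call at 24h was lost without the Kaede-green 24h library 2 (0.80, adjusted p = 0.0641) or 4 (0.80, adjusted p = 0.052), and was kept with the Rn45s share as a covariate (1.23, adjusted p = 0.0366). The call averaged over the times was lost with that covariate, where the value was higher (0.83, adjusted p = 0.178), and without Kaede-green 24h library 2 (0.45, adjusted p = 0.0648) or 4 (0.43, adjusted p = 0.0723), Kaede-red 24h library 1 (0.50, adjusted p = 0.057), Kaede-green 72h library 3 (0.43, adjusted p = 0.0854) and Kaede-red 72h library 1 (0.45, adjusted p = 0.0838) or 2 (0.49, adjusted p = 0.0634).

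H2-Q4 and H2-T23, the latter the heavy chain of Qa-1, did not pass the test in any comparison under TMM scaling. H2-Q4 ranged from 39.0 to 88.5 CPM in Kaede-green and from 55.8 to 97.5 CPM in Kaede-red libraries, with a log2 fold change of 0.16 (95% interval -0.14 to 0.47) averaged over the times. H2-T23 ranged from 35.9 to 86.4 CPM in Kaede-green and from 43.1 to 73.0 CPM in Kaede-red libraries, with 0.20 (95% interval -0.12 to 0.51) averaged over the times and -0.25 with the Rn45s share as a covariate.

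B2m, which encodes the light chain of every class I molecule, had 401, 436, 318 and 306 CPM in the Kaede-green and 567, 510.3, 387 and 391 CPM in the Kaede-red libraries at 24h. At 72h it had 282, 256, 362 and 377 CPM in the Kaede-green and 553, 527, 488 and 567 CPM in the Kaede-red libraries. Kaede-red libraries 3 and 4 fell among the Kaede-green ones at 24h, and the colours were apart at 72h. The log2 fold change was 0.54 (SE 0.15, adjusted p = 0.00825) averaged over the times, with 8 of 8 Kaede-red libraries above the Kaede-green mean of their time. At 72h it was 0.74 (SE 0.21, 95% interval 0.31 to 1.17, adjusted p = 0.0127) in 4 of 4 libraries, and at 24h 0.35 (SE 0.21, adjusted p = 0.367). The difference between the times was 0.40 (95% interval -0.21 to 1.00, adjusted p = 0.561), so that the effect is not shown to differ between them. With the Rn45s share as a covariate the value averaged over the times was 0.09 (adjusted p = 0.95). The call at 72h was lost with that covariate (0.24, adjusted p = 0.881) and without the Kaede-green 72h library 2, where the value was 0.63 (adjusted p = 0.0702).

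Tapbp encodes tapasin, which bridges the transporter and the empty class I molecule. It had 55.2, 80.1, 51.5 and 61.2 CPM in the Kaede-green and 63.9, 62.3, 56.7 and 47.5 CPM in the Kaede-red libraries at 24h. At 72h it had 74.3, 58.8, 50.6 and 71.3 CPM in the Kaede-green and 112, 94.3, 97.4 and 97.6 CPM in the Kaede-red libraries. The colours were intermingled at 24h, and at 72h every Kaede-red library exceeded all 12 others. The log2 fold change between the colours was 0.65 (SE 0.19, 95% interval 0.27 to 1.04, adjusted p = 0.014) at 72h and -0.11 (adjusted p = 0.806) at 24h, the latter turning to 0.78 with scaling by the total count outside Rn45s (-0.13 relative to the median gene of that scaling). The difference between the times was 0.76 (95% interval 0.22 to 1.31, adjusted p = 0.157, under 0.05 before adjustment), which does not pass. The call at 72h was lost with the Rn45s share as a covariate (0.39, adjusted p = 0.766). It was also lost without Kaede-green 72h library 2 (0.59, adjusted p = 0.058) or 3 (0.54, adjusted p = 0.0796) or Kaede-red 72h library 1 (0.60, adjusted p = 0.0557).

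Tap1 encodes a chain of the peptide transporter, and had 44.0, 69.9, 36.5 and 55.5 CPM in the Kaede-green and 68.2, 54.6, 50.1 and 42.8 CPM in the Kaede-red libraries at 24h. At 72h it had 63.8, 46.6, 45.2 and 63.0 CPM in the Kaede-green and 88.5, 84.3, 69.4 and 67.4 CPM in the Kaede-red libraries. As with Tapbp, the colours overlapped at 24h and did not at 72h, where the log2 fold change was 0.51 (SE 0.21, adjusted p = 0.0915, under 0.05 before adjustment). Tap2, the partner chain of Tap1, ranged from 6.12 to 18.8 CPM in Kaede-green and from 9.61 to 15.7 CPM in Kaede-red libraries at 24h, from as few as 15 counts. Its ranges at 72h were 15.8 to 20.8 and 15.2 to 22.8 CPM, and its log2 fold change averaged over the times was -0.01 (95% interval -0.37 to 0.34, adjusted p = 0.972), which turned to 0.77 with scaling by the total count outside Rn45s (-0.04 relative to the median gene of that scaling). Counts of Tapbp and Tap1 stayed in similar proportion, at 0.936 to 1.45 Tapbp counts per Tap1 count over all 16 libraries.

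Nlrc5, the class I transactivator, had 20.6, 20.0, 19.1 and 23.3 CPM in the Kaede-green and 10.8, 14.3, 13.4 and 14.4 CPM in the Kaede-red libraries at 24h. At 72h it had 20.8, 12.5, 16.04 and 19.2 CPM in the Kaede-green and 18.2, 18.2, 21.0 and 18.6 CPM in the Kaede-red libraries. All 4 Kaede-red libraries were thus below all 4 Kaede-green ones at 24h, and at 72h the Kaede-red libraries fell within or just above the Kaede-green range. The log2 fold change was -0.65 (SE 0.21, 95% interval -1.07 to -0.23, adjusted p = 0.0486) at 24h. With scaling by the total count outside Rn45s it was 0.23, which is -0.68 relative to the median gene of that scaling (0.91). At 72h it was 0.15 (adjusted p = 0.673), and the difference between the times was 0.80 (95% interval 0.21 to 1.38, adjusted p = 0.165, under 0.05 before adjustment). The adjusted p at 24h lay just under the threshold. It rose above 0.05 in 14 of 16 fits that left out 1 library (log2 fold change -0.70 to -0.55, adjusted p up to 0.172). It also did so without a filter on low counts (-0.56, adjusted p = 0.286), with the groups compared alone in the fit (-0.68, adjusted p = 0.0626) and with the replicate number as a block (-0.65, adjusted p = 0.0554). The same held with the Rn45s share as a covariate (-0.58, adjusted p = 0.331) and with robust dispersion (-0.65, adjusted p = 0.0509). In DESeq2 the adjusted p was 0.00823. Per H2-K1 count there were 0.112 to 0.146 Nlrc5 counts in Kaede-green and 0.0303 to 0.0518 in Kaede-red libraries at 24h, and 0.0651 to 0.105 against 0.0441 to 0.0699 at 72h. This ratio carries no test, and a higher H2-K1 level alone lowers it, so it does not show the direction of Nlrc5. By their levels under TMM scaling, H2-K1 was higher and Nlrc5 lower in the same Kaede-red libraries at 24h.

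**Figure D4:**
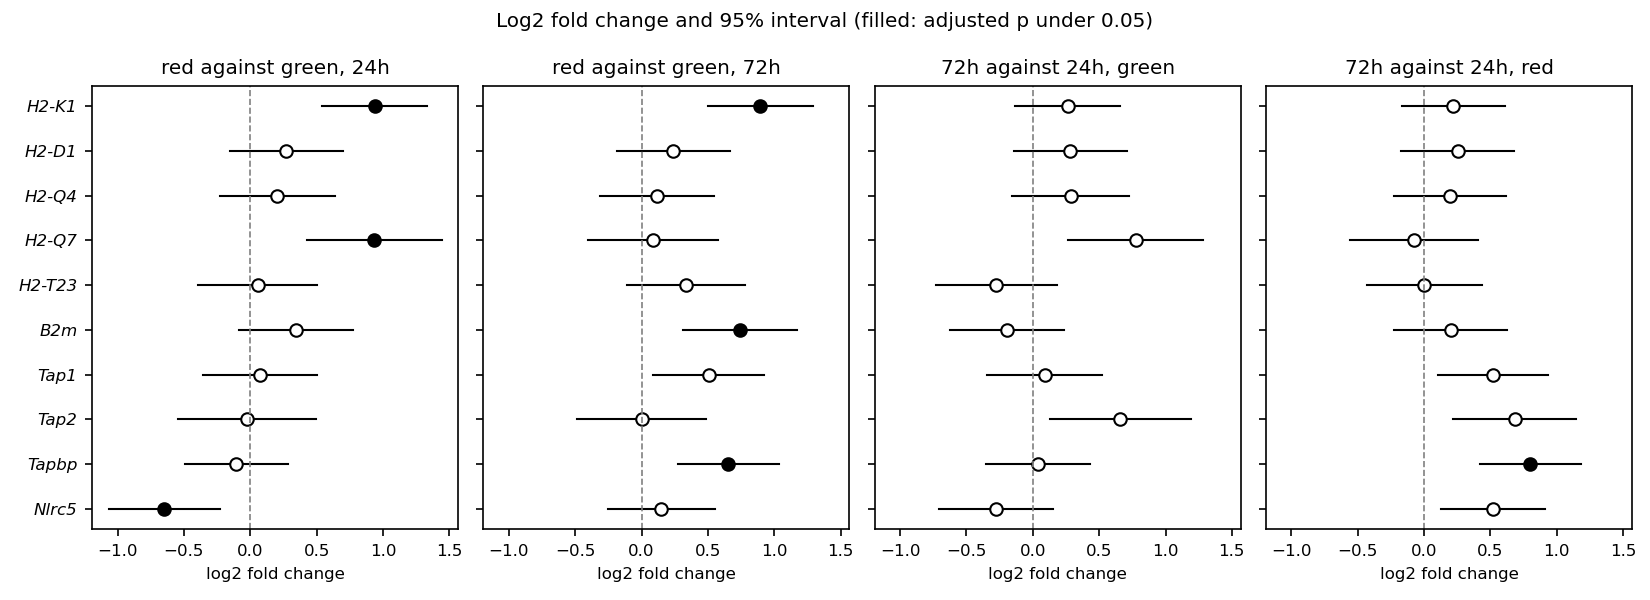
Log2 fold change of each member with its 95% interval from edgeR's fit of 16 libraries, for Kaede-red against Kaede-green cells at each time and for 72h against 24h in cells of each colour. Filled points have an adjusted p under 0.05: H2-K1, H2-Q7 and Nlrc5 at 24h, H2-K1, B2m and Tapbp at 72h, and Tapbp between the times in Kaede-red cells.

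The times were compared within each colour to ask how cells differ with the time since labelling. The paper labelled tumours on a fixed day after injection, so libraries of 72h came from older tumours and from other mice than those of 24h. Time since labelling thus cannot be told apart from tumour age. In Kaede-red cells, which had spent 24h or 72h in the tumour after labelling, Tapbp was higher at 72h in 4 of 4 libraries, with a log2 fold change of 0.80 (SE 0.19, 95% interval 0.42 to 1.18, adjusted p = 0.0072) or 1.74-fold. It was the 1 member of 10 called, as were 8.67% of all tested genes, and Tapbp and Nlrc5 were the 2 members whose libraries did not overlap, as were 20.6% of tested genes. Nlrc5 had a log2 fold change of 0.52 (adjusted p = 0.0883), Tap2 of 0.68 (adjusted p = 0.055) and Tap1 of 0.52 (adjusted p = 0.109), all with an unadjusted p under 0.05. H2-K1 (0.22), H2-D1 (0.25), H2-Q4 (0.20), B2m (0.20), H2-T23 (0.00) and H2-Q7 (-0.07) were closer to 0, and H2-T23 turned to -0.05 with RLE factors. The transport genes and Nlrc5 thus had the largest 4 log2 fold changes of the members in Kaede-red cells, also with RLE factors and with scaling by the total count outside Rn45s. The median over the members was 0.24, beside -0.01 for all tested genes. Of the cell type markers, 3 of 11 for macrophages and monocytes and 1 of 2 for neutrophils were called higher at 72h. For fibroblasts 1 of 3 was called lower, and no tested marker of the remaining lists was called. Whether these cells had a part in the differences of the members was not tested. The number of members called was 3 in DESeq2, beside 12.9% of all tested genes, and 4 with the groups compared alone in the fit, beside 15.9% of the 10080 genes tested there, and Tapbp was not called with the Rn45s share as a covariate (0.69, adjusted p = 0.073).

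In Kaede-green cells, which had entered after labelling at either time, no member was called by edgeR's test and 0% of all tested genes were. At an unadjusted p under 0.05 there were 2 members, H2-Q7 (0.78, adjusted p = 0.403) and Tap2 (0.66, adjusted p = 0.467), and 835 of all genes. DESeq2 called 0 members and 12 genes. The libraries of no member stood apart, as did 2.99% of tested genes. The median log2 fold change was 0.18 over the members and 0.03 over all tested genes.

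The change of the red-green difference from 24h to 72h passed the test for 0 of 10 members and for 0.767% of all tested genes. At an unadjusted p under 0.05 there were 3 members, Nlrc5, Tapbp and H2-Q7, and DESeq2 called 0. A difference between the times in the effect on Nlrc5, Tapbp or H2-Q7 is therefore not established by these libraries, with standard errors of 0.29, 0.27 and 0.34 for these 3.

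Of 10 other genes that supply class I peptides, those of the immunoproteasome, of peptide trimming and of the chaperones, 1 was called averaged over the times, against 20.2% of all tested genes. This was Psme2, which encodes a subunit of the proteasome activator PA28. Psme2 was lower in Kaede-red cells by a log2 fold change of -0.61 (SE 0.15, adjusted p = 0.00295) in 8 of 8 libraries. The call ended with the Rn45s share as a covariate (-0.50, adjusted p = 0.493) and with scaling by the total count outside Rn45s (0.17, adjusted p = 0.287), where the value relative to the median gene was -0.65. At 72h Psme2 was again the 1 gene called (-0.72, adjusted p = 0.015), a call lost without Kaede-red 72h library 1 (-0.67, adjusted p = 0.0598) or 4 (-0.63, adjusted p = 0.0643), without a filter on low counts (-0.58, adjusted p = 0.0818), with the Rn45s share as a covariate (-0.59, adjusted p = 0.625) and with scaling by the total count outside Rn45s (-0.09, adjusted p = 0.726). The immunoproteasome subunits Psmb8 and Psmb9 had -0.33 (adjusted p = 0.0962) and -0.50 (adjusted p = 0.119) averaged over the times. No gene of the list was called at 24h (1 at an unadjusted p under 0.05) or between times in Kaede-green (0 unadjusted) or Kaede-red cells (1 unadjusted). The list's median was -0.21 averaged over the times and that of the members 0.26, and no test compared the lists.

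Of 16 other class I and class I-like heavy chains, 13 were tested and 8 were called averaged over the times, against 20.2% of all tested genes. The 7 higher ones included H2-Q9, with the counts of H2-Q7, and H2-Q6 and H2-Q8, which share their counts with each other (0.48, adjusted p = 0.0307). The others were H2-T24 (0.58, adjusted p = 0.0147), H2-Q5 (0.53, adjusted p = 0.0402), Hfe (0.92, adjusted p = 0.0269), which regulates iron uptake, and Fcgrt (0.95, adjusted p = 0.0485), the neonatal Fc receptor. H2-Q2 was lower in 8 of 8 Kaede-red libraries, by -1.17 (SE 0.25, adjusted p = 0.000964). Of these calls, those of H2-T24 and H2-Q2 held in all 16 fits that left out 1 library, and the others were lost in 4 (Hfe), 6 (H2-Q9), 8 (H2-Q6 and H2-Q8), 9 (Fcgrt) and 12 (H2-Q5) of them. With the Rn45s share as a covariate all 8 calls ended, with 0.10 (adjusted p = 0.956) for H2-T24, -0.75 (adjusted p = 0.578) for H2-Q2, 0.39 (adjusted p = 0.68) for H2-Q6 and H2-Q8, 0.72 (adjusted p = 0.741) for Fcgrt and 0.86 (adjusted p = 0.56) for Hfe. The values of H2-Q5 (0.83, adjusted p = 0.196) and H2-Q9 (0.83, adjusted p = 0.178) were higher there than without it. That of H2-Q2 also ended with scaling by the total count outside Rn45s (-0.44, adjusted p = 0.139, and -1.25 relative to the median gene), that of H2-Q5 with RLE factors (adjusted p = 0.0531), in DESeq2 (0.0605) and with the replicate number as a block (0.0539), and that of Fcgrt with RLE factors (0.054) and robust dispersion (0.0584). At 24h H2-Q9 (0.94) and H2-Q2 (-1.34) were called, at 72h H2-T24 (0.67) and H2-Q2 (-0.999), and between times 0 in either colour (2 unadjusted for Kaede-green, 3 for Kaede-red). Leaving out 1 library ended the call of H2-Q2 at 24h in 4 of 16 fits (adjusted p up to 0.0771), and both calls at 72h in 10 (up to 0.166 for H2-Q2 and 0.17 for H2-T24). The covariate ended the calls of H2-Q2 at both times and of H2-T24, the scaling outside Rn45s those of H2-Q2, RLE factors that of H2-T24 (0.0629), and DESeq2 (0.0527), robust dispersion (0.0516) and the fit of the compared groups alone (0.0555) that of H2-Q2 at 72h. The list's median log2 fold change was 0.48 averaged over the times, which is the value of H2-Q6 and H2-Q8. These genes enter the median and the count of calls separately although their counts are the same. H2-Q9 likewise repeats the member H2-Q7. Neither the count nor the median thus rests on independent genes alone.

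A list of 20 genes held interferon signalling genes and factors of the SXY module and the kappa B element of class I and class II promoters. Of these, 3 were called averaged over the times, against 20.2% of all tested genes. The kinase Jak1 (0.51, adjusted p = 0.00971) and the Y box factor subunit Nfya (0.79, adjusted p = 0.00557) were higher. Nfyb, the partner of Nfya, was lower (-0.64, adjusted p = 0.0332, and with scaling by the total count outside Rn45s 0.11, or -0.70 relative to the median gene). At 24h Socs1, an inhibitor of interferon signalling, was lower (-1.02, adjusted p = 0.0458). It was 1 of 20, beside 7.51% of all tested genes called in either direction (309 higher and 415 lower). At 72h Jak1 (0.79), Nfya (0.90), Nfkb1 (0.70) and Rela (0.75) were higher in Kaede-red cells. They were 4 of 20, beside 16.8% of all tested genes called in either direction (778 higher and 845 lower). Within Kaede-red cells Jak1 (0.78), Stat2 (0.62), Irf1 (0.62), Irf2 (0.71) and Nfkb1 (0.79) were higher at 72h than at 24h. They were 5 of 20, beside 8.67% of all tested genes called in either direction (473 higher and 363 lower). Without 1 library in turn, the calls of Jak1 and Nfya averaged over the times and of Jak1 at 72h held in 16 of 16 fits, that of Jak1 between times in 15 (0.70, adjusted p = 0.0521, without Kaede-red 24h library 4), and the others in 7 to 12. With the Rn45s share as a covariate all of these calls ended but that of Socs1 (-1.56, adjusted p = 0.0332), with 0.23 (adjusted p = 0.833) for Jak1 and 0.60 (adjusted p = 0.563) for Nfya averaged over the times, and -0.93 (adjusted p = 0.274) for Nfyb, which was further from 0 than without it. At 72h the values were 0.47 (adjusted p = 0.684) for Jak1, 0.69 (adjusted p = 0.694) for Nfya, 0.25 (adjusted p = 0.896) for Nfkb1 and 0.23 (adjusted p = 0.924) for Rela, and between times 0.65 (adjusted p = 0.102) for Jak1, 0.51 (adjusted p = 0.206) for Stat2, 0.51 (adjusted p = 0.209) for Irf1, 0.48 (adjusted p = 0.3) for Irf2 and 0.59 (adjusted p = 0.214) for Nfkb1. Scaling by the total count outside Rn45s ended those of Nfyb, Socs1 (-0.10, or -1.01 relative to the median gene), Stat2 (0.53, adjusted p = 0.0999), Irf1 (0.55, adjusted p = 0.0702) and Irf2 (0.64, adjusted p = 0.0918), a fit without a filter those of Nfyb and Socs1, the replicate number as a block those of Nfyb, Socs1 and Rela, and RLE factors those of Rela and Stat2. In Kaede-green cells 0 of 20 passed between times, and 0 at an unadjusted p under 0.05. In the test of the change with time of the difference between the colours, edgeR called 0 and 5 had an unadjusted p under 0.05.

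MHC class II genes, which present peptides from outside the cell, are given for comparison. H2-Ab1 (0.96), H2-Aa (1.07), H2-Eb1 (1.03) and Cd74 (1.21) were higher in Kaede-red cells averaged over the times. They were 4 of 7 tested, beside 20.2% of all tested genes called in either direction (960 higher and 990 lower). H2-DMa (0.12, adjusted p = 0.77), H2-DMb1 (0.06, adjusted p = 0.861) and H2-DMb2 (0.23, adjusted p = 0.63), which encode the peptide editor of class II, did not pass. The list had a median of 0.96 beside 0.26 for the members, and no test compared the lists. All 4 calls ended with the Rn45s share as a covariate, with 0.29 (adjusted p = 0.799) for H2-Ab1, 0.17 (adjusted p = 0.91) for H2-Aa, 0.24 (adjusted p = 0.836) for H2-Eb1 and 0.11 (adjusted p = 0.944) for Cd74. H2-K1, at 0.92, was the member nearest to the 4. At 24h H2-Ab1, H2-Aa and H2-Eb1 were called and at 72h the same with Cd74, between times 0 in either colour (1 unadjusted for Kaede-green, 2 for Kaede-red). Each of these calls ended with that covariate. Those of H2-Aa and H2-Ab1 at 24h were lost in 4 of 16 fits that left out 1 library, and that of H2-Aa also with the groups compared alone in the fit (adjusted p = 0.0509) and with robust dispersion (0.137 at 24h, 0.0516 at 72h).

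The genes whose pattern was most like that of the members within groups were Mpeg1 (r = 0.96), Tagln2 (0.93), Ier5 (0.90), Ass1 (0.90) and Irf8 (0.89). The measure is Pearson's r over 16 libraries, after the mean of each group is subtracted, with the mean standardised log2 CPM of the 10 members. It is a description, since all genes of a library share its depth and scaling. None of the 5 passed the test for Kaede-red against Kaede-green cells averaged over the times (adjusted p from 0.0667 for Mpeg1 to 0.978 for Tagln2).

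**Figure D5:**
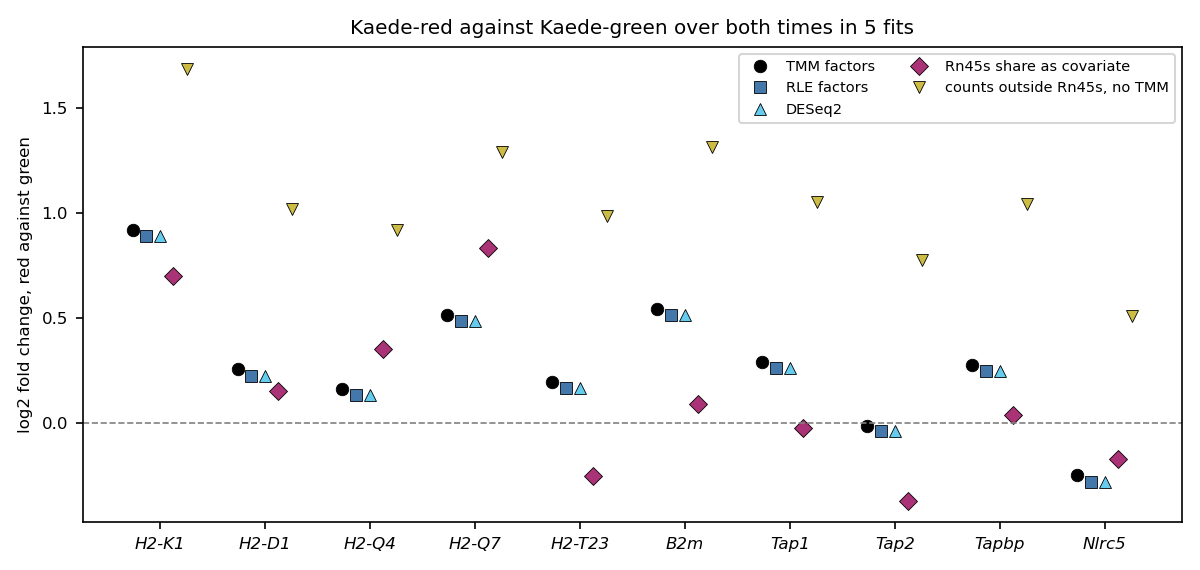
Log2 fold change of each member in Kaede-red against Kaede-green cells averaged over the times in 5 fits that differ in scaling, test or covariate. The order of the members is similar with TMM, RLE and DESeq2 factors, scaling by the total count outside Rn45s lifts all 10 above 0 (0.51 for Nlrc5 to 1.69 for H2-K1) with the median of all tested genes at 0.81, and the Rn45s share as a covariate lowers B2m to 0.09.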

How the data were processed

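Total RNA of sorted CD11b+ tumour cells was sequenced from 16 libraries, 4 in each of 4 groups. The deposited values are whole read counts per gene, which the authors made with Trim Galore, HISAT2 on mm10 and featureCounts, without normalization; the strand setting and annotation are not stated. Genes were kept by filterByExpr with its default settings (9642 of 24421), scaled with TMM and tested with the quasi-likelihood test of edgeR 4.0.16 in R 4.3.3, in 1 fit with 1 mean for each group. Adjustment followed Benjamini and Hochberg (Benjamini-Hochberg) across the tested genes of each of 6 comparisons, and genes with an adjusted p under 0.05 were called. The chain was tested on simulated data, in which the Rn45s share was not made to differ between the colours. All 10 members are named, with the called genes and a few others of 4 lists (proteasome, trimming and chaperones; other heavy chains; interferon, SXY and kappa B regulators; class II) and the 5 genes most like the members. Other named genes are markers of 9 cell types. Of the planned lists, 2 genes are not reported here and do not enter the counts and sums of their lists. The members and lists were chosen with earlier results of these data known. CPM uses TMM-scaled library sizes, CPM per kb the exon lengths of GENCODE M21. The alternatives were RLE factors, scaling by the total count outside Rn45s, the Wald test of DESeq2 1.42.0, no filter, a fit of no other groups than those compared, replicate number as a block, the Rn45s share as a covariate, robust dispersion from limma 3.58.1, and leaving out each library. Counting depth ran from 15 counts (Tap2) to 27000 (B2m) for a member in a library.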

Additional observations from a re-analysis of the deposited data

Results flagged for a closer look

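In 3 of the 40 combinations of a member and a group, 1 library stood far from the other 3, by a gap above Dixon's critical value for 4 samples at 95%. Chance flags about 1 in 20 groups. H2-D1 was low in Kaede-green 24h library 1, at 271 CPM against 345 to 347 in the others. Tap2 was low in Kaede-green 72h library 3, at 15.8 CPM against 20.1 to 20.8. Nlrc5 was high in Kaede-red 72h library 3, at 21.0 CPM against 18.2 to 18.6.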

How the results depend on the processing

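There were 8 alternatives and 16 fits that each left out 1 library, and 7 alternatives for values averaged over the times and for the change with time, where the fit of only the groups compared was not run. In all fits run, the number of members called stayed at 0 between the times in Kaede-green cells and for the change with time of the difference between the colours. H2-K1 was called in Kaede-red against Kaede-green cells averaged over the times, at 24h and at 72h in all fits run but that with the Rn45s share as a covariate. In each changed value the cause was not tested. Tap2 rests on 15 to 46 counts in Kaede-green 24h libraries, which limits its precision.

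Scaling by the total count outside Rn45s called 10 members averaged over the times, 9 at 24h and 10 at 72h in Kaede-red against Kaede-green cells, with 68.5, 53.8 and 43.5% of the 8261 genes tested there, and its median gene stood at 0.81, 0.91 and 0.69. It reversed Tap2 (0.77 averaged over the times, 0.89 at 24h, 0.66 at 72h), Nlrc5 (0.51 averaged over the times, 0.23 at 24h), Tapbp at 24h (0.78), Psme2 (0.17) and Nfyb (0.11) averaged over the times, B2m between times in Kaede-green cells (0.0081), H2-T23 between times in Kaede-red cells (-0.070), and the change with time of H2-T23 (-0.018) and Tap2 (-0.23). Relative to the median gene of that scaling the values were -0.038, -0.016 and -0.037 for Tap2, -0.30 and -0.68 for Nlrc5, -0.13 for Tapbp, -0.65 for Psme2, -0.70 for Nfyb, -0.18 for B2m, and for the change with time 0.25 for H2-T23 and 0.037 for Tap2, each with its sign under TMM, and -0.0084 for H2-T23 between times in Kaede-red cells. The Rn45s share as a covariate left 0 members called averaged over the times, 1 at 24h, 0 at 72h and 0 between times in Kaede-red cells. It reversed H2-T23 (-0.25 averaged over the times, -0.35 at 24h, -0.16 at 72h, -0.20 between times in Kaede-red cells), Tap1 (-0.025 averaged over the times, -0.21 at 24h), B2m (-0.055 at 24h, -0.011 between times in Kaede-red cells), Tapbp between times in Kaede-green cells (-0.016), H2-Q7 between times in Kaede-red cells (0.056) and the change with time of Tap2 (-0.068). With RLE factors H2-T23 between times in Kaede-red cells was -0.0486 and the change with time of Tap2 -0.0070, and DESeq2 gave -0.0486 and -0.0060. Without a filter Tap2 was 0.11 averaged over the times, 0.065 at 24h and 0.15 at 72h, and the change with time was 0.011 for H2-K1 and 0.022 for H2-D1.

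Between times in Kaede-red cells, 3 members were called in DESeq2 (12.9% of all genes tested in that fit), 2 without a filter (3.93%), 4 with only the groups compared (15.9%), 2 with robust dispersion (8.65%) and 2 with a block for the replicate number (9.1%). Single replicate numbers did not pair the colours. Correlations were taken over genes, after the mean of each group was subtracted from log2 CPM. Of 8 Kaede-green libraries, 2 correlated best with the Kaede-red library of their own number. The same-numbered pairs had r from -0.018 to 0.153. At 24h, r between the colours was 0.0701 to 0.147 among libraries 1 and 2 and 0.0493 to 0.153 among libraries 3 and 4. Across these sets it was -0.132 to -0.027. What the libraries of a set share was not tested.

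Leaving out a library gave 1 to 3 members called at 24h (1 without Kaede-green 24h library 2 or 4), 1 to 3 at 72h (1 without Kaede-green 72h library 2) and 1 to 2 between times in Kaede-red cells. Log2 fold changes near 0 crossed it. For Kaede-red against Kaede-green, Tap2 ranged from -0.13 to 0.15 averaged over the times, from -0.25 to 0.28 at 24h and from -0.10 to 0.10 at 72h, H2-T23 at 24h from -0.11 to 0.31, Tap1 at 24h from -0.083 to 0.27, Tapbp at 24h from -0.20 to 0.057, and at 72h H2-Q4 from -0.046 to 0.26 and H2-Q7 from -0.066 to 0.27. Between times, Tap1 ranged from -0.070 to 0.28 and Tapbp from -0.060 to 0.20 in Kaede-green cells, H2-Q7 from -0.20 to 0.10 and H2-T23 from -0.12 to 0.14 in Kaede-red cells. The change with time of the difference between the colours ranged from -0.13 to 0.050 for H2-K1, -0.15 to 0.11 for H2-D1, -0.25 to 0.059 for H2-Q4 and -0.26 to 0.23 for Tap2.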
